A study of Mus musculus with 9 samples.

Results

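The ATP-binding cassette (ABC) transporter family was followed in kidneys of young and old wild-type mice. Its members were all genes whose symbol is Abc with a subfamily letter from a to g, a number and at most 1 further letter, which gave 31 of the 13081 genes of the deposited table. The members fell into subfamilies A (9 genes), B (7), C (7), D (2), E (1), F (3) and G (2). By the same symbol pattern, the GENCODE vM21 annotation holds 18 other genes, among them Abca8b, Abcb4, Abcb11, Abcc3, Abcc8, Abcd2, Abcg5 and Abcg8, which were not analysed here. A further gene of subfamily D was left out by the rule. Kidney RNA came from wild-type mice of 3 months (young, n = 4) and 16 months (old, n = 5), with no treatment named. Strain and sex of the mice behind each library are not given in the labels. The labels do not say that the libraries are separate animals, so the p-values measure the spread between these libraries, which may be technical. The libraries were made with a kit that primes on the poly(A) tail and reads transcript ends, so a count stands for transcripts rather than for their length.

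ABC transporters are membrane proteins that bind and hydrolyse ATP to move lipids, sterols, drugs, conjugates, ions or peptides across membranes, mostly outwards. In the proximal tubule of the kidney, members of subfamilies B, C and G in the apical (brush border) membrane pass drugs, organic anions and urate into the urine, after uptake from the blood by carriers of the Slc22 family. Subfamily A moves lipids, subfamily D serves peroxisomes and lysosomes, several members of subfamily B sit in mitochondria, and the proteins of subfamilies E and F have no membrane domain and act on ribosomes.

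The table held 5093029 to 6355095 reads per young library and 4486406 to 5794960 per old library, and 3 reads, taken as the floor, were 4.72e-05% to 6.69e-05% of a library. Mitochondrial genes took 27.0% to 29.7% of the reads in young and 35.8% to 38.1% in old libraries. Each age has its own title prefix, so a difference in preparation or sequencing between the prefixes cannot be told apart from age. All 8 proximal tubule markers were listed with reads in every library, as were all 6 podocyte markers. The 3 lymphocyte and plasma cell markers tested (of 7 in the list) were all higher in old kidneys. With Cd3e, which was not tested and was at 0 in at least 1 library, they summed to 243 to 700.2 normalised counts in young and 922 to 3234 in old libraries. The 6 adipocyte markers in the table summed to 273 to 1471 normalised counts in young and 59.7 to 1199 in old libraries, each at its highest of its age in young replicate 2 and old replicate 3, and Adipoq, Plin1 and Cidec were at 0 in at least 1 library. In whole tissue, fewer cells of a type and less RNA per cell cannot be told apart. Per limma, 59.7% of all 12667 genes tested differed between the ages at an adjusted p under 0.05, 29.2% being higher and 30.5% lower in old kidneys, and counts of members, markers and other listed genes are to be read against these shares.

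Of the 31 ABC genes, 30 passed the filter on low counts (10 or more normalised counts in 4 or more libraries) and Abca4, the retinoid transporter of photoreceptors, did not. In old against young kidneys, 18 of the 30 (60%) were called, meaning an adjusted p under 0.05 in the limma test over all genes, a share like the 59.7% of all genes. Direction was less even than over all genes: 14 members (46.7%) were higher in old kidneys, where the share over all genes was 29.2%, and 4 members (13.3%) were lower, where it was 30.5%. The change reached 1.5-fold in 15 called members (50%, against 45.1% of all genes), 12 of them higher (40%, against 21.6%) and 3 lower (10%, against 23.6%). Old and young values were fully separate in 18 members, 60% against 49.0% of all genes. The median log2 fold change was 0.31 over the 30 members and -0.003 over all genes tested. Among the members that rose were Abca5, Abca9 and Abca13, Abcb1a and Abcb1b, Abcc1, Abcc2, Abcc4 and Abcc9, Abcf1 and Abcf2, and Abcg2. Abcb8, Abcb10, Abcc10 and Abcd4 fell. Of the libraries richest in adipocyte markers, leaving out old replicate 3 gave 14 members higher and 4 lower, and leaving out young replicate 2 gave 12 higher and 3 lower.

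**Figure D1:**
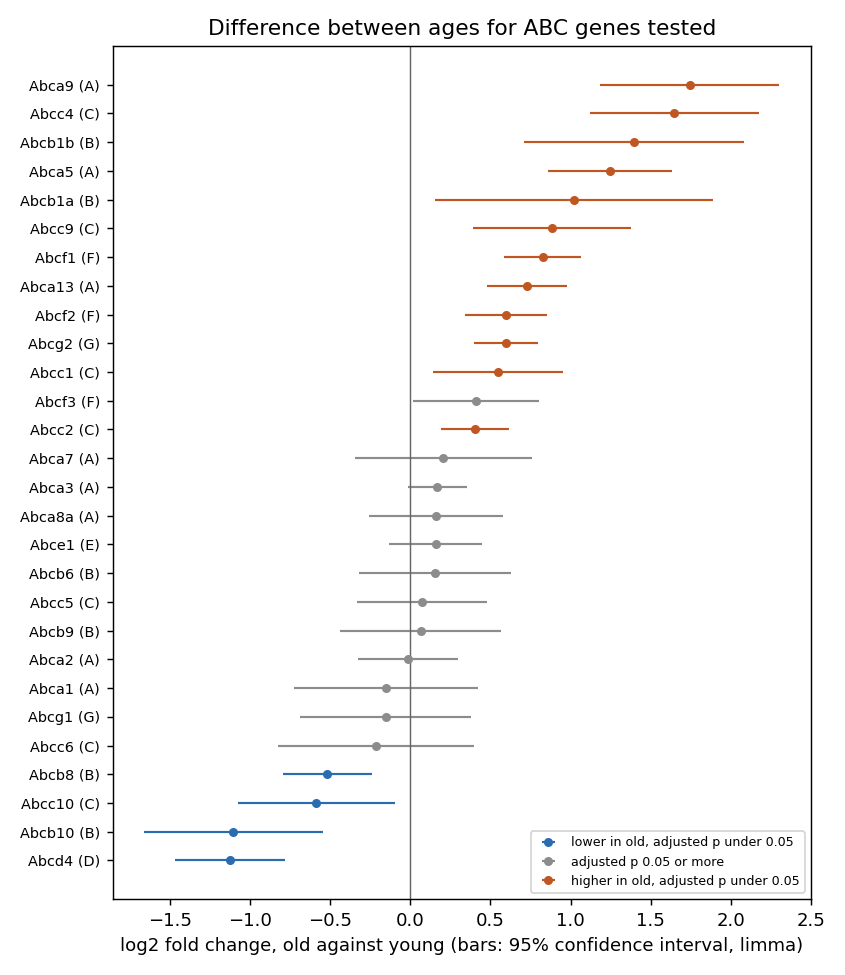
Log2 fold change of 28 of the 30 ABC genes tested, old against young, on the log2(normalised count + 1) scale, with the subfamily letter in brackets and the 95% confidence interval of limma as a bar. The 12 genes drawn that were called higher run from 0.41 (Abcc2) to 1.74 (Abca9), and the 4 called lower from -0.52 (Abcb8) to -1.12 (Abcd4).

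ABC transcripts are long, and length moved with the fold change in these libraries. The longest annotated transcript had a median of 5643 bases over the members tested and 3331 bases over all genes with a length, and 26 of the 30 members lay above the latter. Over 12433 genes, which are not independent replicates and share the same 9 libraries, the log2 fold change rose with transcript length (Spearman's rho 0.275, a description). With that trend removed from each library, 16 members were called (53.3%, against 57.6% of all genes), 10 higher (33.3%, against 28.8% of all genes) and 6 lower (20%, against 28.8%), and the median over members was 0.12. Of the 18 calls of the main test, 13 were kept in the same direction and 5 were lost, those of Abca13 (-0.018), Abcb1a (0.87), Abcc1 (0.22), Abcc2 (-0.0057) and Abcc9 (0.51), while Abca1 and Abca2 were then called lower and Abcf3 higher. The excess of rises over falls in the family was thus smaller on this scale. On counts scaled to equal totals without the mitochondrial genes, 19 members were called (63.3%, against 60.5% of all genes), 16 higher (53.3%, against 35.4%) and 3 lower (10%, against 25.1%), with the median of all genes moved to 0.13.

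**Figure D2:**
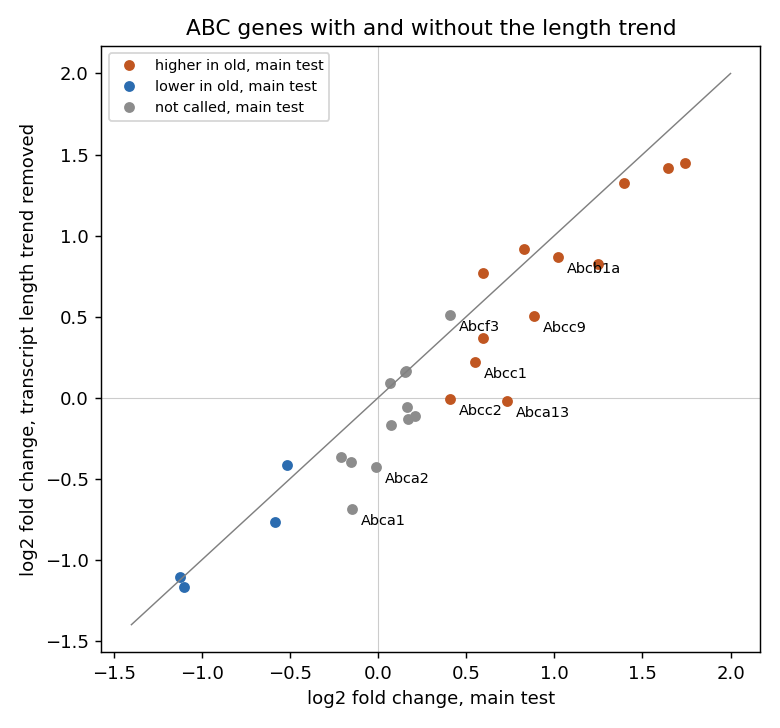
Log2 fold change, old against young, of 28 of the 30 ABC genes in the main test (x axis) and after the trend with transcript length was removed from each library (y axis), with the line of equality. The named genes changed their call: Abca13 and Abcc2 came to lie near 0, Abcb1a, Abcc1 and Abcc9 stayed above 0 without a call, and Abca1, Abca2 and Abcf3 gained one.

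The exporters of the apical membrane of the proximal tubule were called higher in old kidneys in 5 of 5 cases (29.2% of all genes were). This grouping by known location was made after the values had been seen, so the count is a description, and the calls of Abcc2 and Abcb1a were lost with the length trend removed. Abcg2, which exports urate and many drugs, was read at 1281, 1227, 1159 and 972 normalised counts in the young and 1671, 1664, 1729, 1846 and 1824 in the old libraries. The old libraries lay close together and above every young library, 1.51-fold higher in the mean (log2 fold change 0.60, SE 0.09, adjusted p = 2.62e-05 by limma), and the call was kept with the length trend removed (0.37). Abcc4 exports cyclic nucleotides, urate and organic anions. It stood at 91.7, 59.3, 84.3 and 62.5 in young and 243, 224, 263, 415 and 111 in old libraries, so that every old library exceeded the young ones, though old replicate 5 was near them. Abcc4 rose 3.37-fold in the mean (log2 fold change 1.65, SE 0.25, adjusted p = 1.75e-05 by limma), the largest rise of subfamily C, and was called under each alternative.

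Abcc2, the apical exporter of glutathione and glucuronide conjugates, was measured at 956, 1038, 966 and 874 normalised counts in young and 1059.7, 1190.1, 1356, 1457 and 1319 in old kidneys. These ranges did not overlap, with old replicate 1 just above the highest young library (log2 fold change 0.41, SE 0.10, adjusted p = 0.00196 by limma), but the call was lost once the length trend was removed (-0.0057, adjusted p = 0.964). Abcb1a and Abcb1b encode the rodent P-glycoproteins, efflux pumps for hydrophobic drugs. Abcb1b had 14.7, 9.72, 5.88 and 9.96 in young and 36.5, 20.8, 17.2, 43.8 and 24.4 normalised counts in old libraries, without overlap (log2 fold change 1.39, SE 0.33, adjusted p = 0.00126 by limma). Abcb1a had 9.83, 5.83, 14.7 and 3.62 in young and 21.2, 21.9, 7.099, 23.3 and 14.9 in old libraries, where old replicate 3 fell inside the young range (log2 fold change 1.02, SE 0.41, adjusted p = 0.0401 by limma). Abcb1a was read from only 4 to 25 reads per library, and its call was kept in 12 of 21 alternatives, with adjusted p from 0.00758 to 0.151. The longest transcripts of this gene pair share 17.0% and 18.3% of their 50-base sequences with other genes, but 0% and 3.1% in the last 500 bases, where the kit reads. Of the 8 proximal tubule markers, 3 rose and 4 fell, with a summed level of 34537 to 35864 normalised counts in young and 31781 to 40102 in old libraries, which overlapped. Endothelial cells also carry P-glycoprotein, and 4 of 7 endothelial markers (Pecam1, Kdr, Tek and Ehd3) were called higher, with a summed level of 1348 to 1482 normalised counts in young and 1693 to 1919 in old libraries. The part of either list in the results was not tested.

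**Figure D3:**
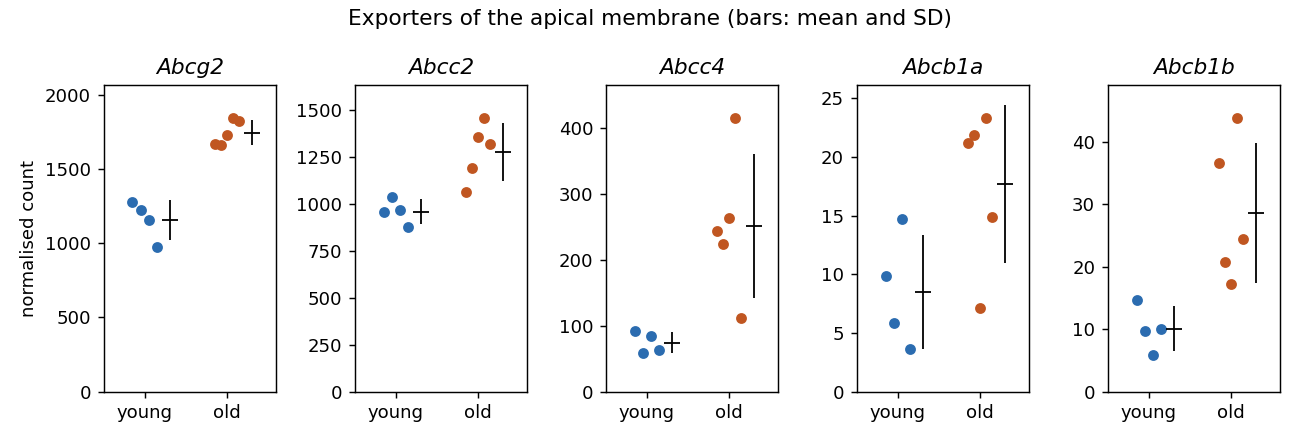
Normalised counts of Abcg2, Abcc2, Abcc4, Abcb1a and Abcb1b in each library (points) with the mean and SD of each age (bars), each panel with its own axis from 0. The old libraries lie above all young libraries for each gene but Abcb1a, of which old replicate 3 has 7.099 and the highest young library 14.7.

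The promoters of the 3 apical exporters with the most reads are shown as reference context for these rises. Each is the RefSeq window (build GRCm38.p6) from 250 bases before to 50 after a RefSeq start, taken because it holds the 5′ end of the gene in GENCODE vM21, and is read on the strand of the gene. Capitals mark matches on either strand to TGACNNNGC (the antioxidant response element, bound by Nfe2l2), AGGTCA (a core motif of nuclear receptors) and CACGTG (the E-box, bound by the Tfeb family among others), a set chosen after the values had been seen.
Abcc4 (chr14:118706170-118706469, minus strand): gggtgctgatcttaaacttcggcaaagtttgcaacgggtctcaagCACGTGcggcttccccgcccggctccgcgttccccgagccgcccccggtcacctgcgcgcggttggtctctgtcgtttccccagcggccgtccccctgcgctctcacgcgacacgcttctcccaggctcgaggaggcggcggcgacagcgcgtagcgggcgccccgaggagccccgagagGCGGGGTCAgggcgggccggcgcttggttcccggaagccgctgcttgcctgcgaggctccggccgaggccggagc
Abcc2 (chr19:43782058-43782357, plus strand): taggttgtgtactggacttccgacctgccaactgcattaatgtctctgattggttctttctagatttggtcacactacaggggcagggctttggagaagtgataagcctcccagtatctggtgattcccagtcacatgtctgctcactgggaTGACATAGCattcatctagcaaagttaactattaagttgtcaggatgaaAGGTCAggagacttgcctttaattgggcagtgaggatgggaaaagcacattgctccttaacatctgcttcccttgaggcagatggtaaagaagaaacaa
Abcg2 (chr6:58584283-58584582, plus strand): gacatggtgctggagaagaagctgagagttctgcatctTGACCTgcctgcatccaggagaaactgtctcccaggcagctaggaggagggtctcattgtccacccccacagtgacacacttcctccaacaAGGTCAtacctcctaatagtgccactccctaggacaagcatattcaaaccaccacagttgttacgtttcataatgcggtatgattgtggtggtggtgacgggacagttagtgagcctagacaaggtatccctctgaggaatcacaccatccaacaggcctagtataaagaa
The Abcc4 window holds an E-box and a match to the antioxidant response element, that of Abcc2 1 match each to the antioxidant response element and AGGTCA, and that of Abcg2 a pair of AGGTCA matches. Abcg2 has other starts in the same table, and which of them was used is not shown by reads from transcript ends. Windows were matched for 24 of the 31 members. Among these 24, TGACNNNGC was found in 4 (16.7%, against 14.0% of all 27025 genes with a window), AGGTCA in 4 (18.1% of all genes) and CACGTG in 4 (8.09%). These matches describe letters in the windows only.

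The genes that regulate or work beside these exporters were a list of which 13 genes were in the table. Of these, 7 rose (53.8%, against 29.2% of all genes) and 5 fell (38.5%, against 30.5%). Rdx, radixin, which links membrane proteins to the actin cytoskeleton, showed the largest rise among those with a mean of 50 or more normalised counts (log2 fold change 0.98, SE 0.09, adjusted p = 4.22e-08 by limma). Slc22a6, the basolateral uptake carrier for organic anions (OAT1), showed the largest fall, with 4975 ± 127 (SD, n = 4) in young and 2089 ± 181 (SD, n = 5) in old kidneys (log2 fold change -1.26, SE 0.09, adjusted p = 1.44e-09 by limma). The other uptake carriers of the list, named after their values had been seen, did not all move alike: Slc22a8 (OAT3) fell with overlapping ranges (log2 fold change -0.38, SE 0.14, adjusted p = 0.0276 by limma) and was called in 15 of 22 alternatives, while Slco4c1, a basolateral carrier of organic anions, rose without overlap (log2 fold change 0.99, SE 0.24, adjusted p = 0.00187 by limma).

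Outside the apical exporters, subfamily C was mixed. Abcc1, a basolateral exporter of conjugates, read 33.6, 25.3, 38.2 and 28.97 in young and 41.3, 45.9, 45.6, 46.6 and 50.9 in old libraries, a narrow step without overlap (log2 fold change 0.55, SE 0.19, adjusted p = 0.0205 by limma). The call was lost without young replicate 2 (0.45, adjusted p = 0.0767) or young replicate 4 (0.51, adjusted p = 0.0522) and with the length trend removed (0.22, adjusted p = 0.333). Abcc10, an exporter of conjugates and taxane drugs, fell from 37.7, 38.9, 38.2 and 41.6 to 23.6, 33.9, 29.4, 29.8 and 15.9 normalised counts (log2 fold change -0.59, SE 0.23, adjusted p = 0.0377 by limma). All old libraries of Abcc10 lay below the young ones, but its call held in 11 of 21 alternatives, with adjusted p from 0.0091 to 0.115, and was lost without young replicate 1 (-0.60, adjusted p = 0.0658), 2 (-0.59, adjusted p = 0.0722), 3 (-0.60, adjusted p = 0.0692) or 4 (-0.56, adjusted p = 0.0869) or old replicate 1 (-0.55, adjusted p = 0.0615) or 5 (-0.42, adjusted p = 0.0919). Abcc5, which exports cyclic nucleotides, was not called (0.07, 95% confidence interval -0.33 to 0.48), with old replicate 3 at 152 and the other old libraries between 65.8 and 96.3 normalised counts.

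Abcc9 and Abcc6 have partners of their own. Abcc9 encodes the sulphonylurea receptor SUR2, the regulatory subunit of ATP-sensitive potassium channels in vessels, and stood at 43.4, 24.3, 31.4 and 35.3 in young and 43.6, 43.8, 78.1, 83.02 and 71.1 in old libraries. Its old values began just above the highest young one (log2 fold change 0.88, SE 0.23, adjusted p = 0.00327 by limma), and the call was lost with the length trend removed (0.51, adjusted p = 0.0645). The pore subunit that pairs with it, Kcnj8 (Kir6.1), went the other way, from 21.3, 30.1, 26.5 and 32.6 to 8.25, 8.75, 9.13, 15.9 and 11.7 normalised counts (log2 fold change -1.31, SE 0.29, adjusted p = 0.000714 by limma). Of 7 pericyte and smooth muscle markers, 4 (Rgs5, Cspg4, Myh11 and Tagln) rose, Pdgfrb fell, and Acta2 (0.09) and Notch3 (-0.04) were not called. The sum of these markers was 528 to 707 normalised counts in young and 1023 to 1259 in old libraries, of which Tagln gave a mean of 85.7 in young and 393 in old. Their part in the result was not tested. Abcc6, whose loss causes pseudoxanthoma elasticum through lack of pyrophosphate, was not called (-0.21, interval -0.82 to 0.40). Of the 4 listed genes of pyrophosphate balance, Alpl (alkaline phosphatase, 0.995, adjusted p = 3.03e-06 by limma) and Ank (pyrophosphate export, 0.68, 0.00674) rose, Nt5e (CD73, -0.64, 0.000156) fell, and Enpp1, which makes pyrophosphate, was not called (-0.13, 0.481).

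In subfamily A, the lipid transporters, 3 of 8 members tested rose (37.5%, against 29.2% of all genes) and 0 fell (30.5% of all genes). Abca9 gave the largest log2 fold change of the family. It had 22.1, 19.4, 36.3 and 12.7 normalised counts in young and 51.9, 70.01, 73.02, 68.1 and 116 in old libraries, with the lowest old library well above the highest young one (log2 fold change 1.74, SE 0.27, adjusted p = 1.76e-05 by limma). Abca5, a lysosomal and endosomal member, read 31.1, 25.3, 32.4 and 37.1 in young and 71.9, 60.2, 82.1, 92.3 and 74.3 in old libraries, again without overlap (log2 fold change 1.25, SE 0.18, adjusted p = 1.16e-05 by limma). Abca9 and Abca5 lie in a cluster on chromosome 11 (chr11:110100749-110168196 and chr11:110269369-110337716, GRCm38) that also holds Abca8a (chr11:110025634-110095978). Abca8a, in contrast, was read at 102, 129, 89.2 and 54.3 in young and 94.3, 92.98, 131, 90.5 and 96.5 in old libraries, with overlapping ranges and the highest value of each age in the library with the most adipocyte marker counts, whose part was not tested (0.16, interval -0.26 to 0.58, adjusted p = 0.504 by limma). Abca13, the longest protein of the subfamily, rose from 209, 223, 195 and 178 to 318, 418, 316, 329 and 296 normalised counts, without overlap (log2 fold change 0.73, SE 0.12, adjusted p = 3.26e-05 by limma). Its longest transcript has 16011 bases, the most of the family, and the call was lost with the length trend removed (-0.018, adjusted p = 0.919). In the same libraries, of 5 fibroblast markers tested, Pdgfra rose and Col1a1, Col1a2 and Col3a1 fell, and their sum was 1477 to 1843 normalised counts in young and 831 to 1404 in old libraries. Their part in the result was not tested.

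The remaining members of subfamily A were not called. Abca3, the surfactant lipid transporter of the lung, was measured at 526, 528, 536 and 481 normalised counts in young and 606, 563, 568, 588 and 587 in old libraries. Its old libraries all lay above the young ones, by a small step (log2 fold change 0.17, SE 0.09, adjusted p = 0.103 by limma, interval -0.01 to 0.35). Abca3 was called in 2 of 22 alternatives. Abca2, a lysosomal transporter, had 209, 235, 219.6 and 215 in young and 176, 222, 327, 183 and 210.0 in old libraries, a wider spread in old kidneys around the same level (-0.01, interval -0.33 to 0.30). Abca1, which loads cholesterol onto apolipoproteins, ran from 29.9 to 101 in young and from 42.4 to 77.7 in old libraries (-0.15, interval -0.72 to 0.42). Abca7, a phospholipid transporter of phagocytes, had a log2 fold change of 0.21 (interval -0.35 to 0.76). Abcg1 of subfamily G, the partner of Abca1 in cholesterol export, was likewise not called (-0.15, interval -0.69 to 0.38), and the intervals of Abca1 and Abcg1 hold rises as well as falls. Abca4 had 9.01, 9.72, 3.92 and 7.24 in young and 1.18, 14.2, 10.1, 9.33 and 23.3 in old libraries and was not tested. Around these exporters, 6 of 11 listed genes of sterol handling rose (54.5%, against 29.2% of all genes) and 3 fell (27.3%, against 30.5%). Apoe, a sterol acceptor, rose, with 825 ± 115 (SD, n = 4) in young and 1916 ± 325 (SD, n = 5) in old kidneys (log2 fold change 1.21, SE 0.12, adjusted p = 1.09e-07 by limma). Nr1h3 (LXR alpha), the sterol sensor that drives Abca1 and Abcg1 transcription, fell (log2 fold change -0.72, SE 0.15, adjusted p = 0.000595 by limma). Of 7 macrophage markers, 3 rose and 1 fell, with a sum of 1069.7 to 1294 normalised counts in young and 1288 to 1849 in old libraries, and their part was not tested.

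A pair of mitochondrial members of subfamily B fell. Abcb10, an inner membrane protein needed for haem synthesis, fell from 112, 83.6, 87.3 and 95.96 to 21.2, 72.2, 52.7, 32.6 and 57.3 normalised counts, with old replicate 1 lowest and old replicate 2 nearest to the young level (log2 fold change -1.10, SE 0.27, adjusted p = 0.00152 by limma). Abcb8, also of the inner membrane and tied to iron export, fell from 147, 113, 127 and 137 to 84.9, 95.2, 86.2, 88.6 and 99.7, without overlap (log2 fold change -0.52, SE 0.13, adjusted p = 0.00259 by limma). Both of these calls were kept under each alternative in which the genes were tested.

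The genes of haem and iron-sulphur cluster synthesis mostly fell: 12 of 19 listed genes were lower (63.2%, against 30.5% of all genes) and 3 higher (15.8%, against 29.2%) in old kidneys, with a median log2 fold change of -0.82. Cpox, which makes protoporphyrinogen, showed the largest fall, with 1261 ± 117 (SD, n = 4) in young and 217 ± 45.1 (SD, n = 5) in old kidneys (log2 fold change -2.55, SE 0.13, adjusted p = 1.11e-11 by limma). Isca1, a cluster assembly factor, showed the largest rise (log2 fold change 0.54, SE 0.15, adjusted p = 0.00382 by limma). Abcb10 and Abcb8 moved in the direction of most of the list, which describes these members only and not the mitochondrial members as a group. Abcb6, a porphyrin transporter, was not called (0.16, interval -0.32 to 0.63); the last 500 bases of its transcript share 97.3% of their 50-base sequences with the overlapping gene Gm29253 on the same strand, so its counts are uncertain. Abcb9, a lysosomal peptide transporter, was not called either (0.07, interval -0.43 to 0.57). Its relatives Tap1 and Tap2, which move peptides into the endoplasmic reticulum for MHC class I and carry other symbols, parted. Tap2 fell from 79.4, 59.3, 80.4 and 100.5 to 22.4, 8.75, 6.08, 19.6 and 6.36 normalised counts (log2 fold change -2.73, SE 0.34, adjusted p = 1.42e-06 by limma), while Tap1 was not called (-0.30, adjusted p = 0.205). Cftr, the chloride channel of subfamily C, was not called (0.46, adjusted p = 0.183).

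In subfamily D, Abcd4, which acts in the release of cobalamin (vitamin B12) from lysosomes, fell from 115, 117, 90.2 and 105 to 44.8, 40.5, 46.7, 52.2 and 59.4 normalised counts, with every old library below the young ones (log2 fold change -1.12, SE 0.16, adjusted p = 9.56e-06 by limma), to 0.456 of the young mean, the largest fall of the family. The call was kept under each alternative in which the gene was tested. Of 13 genes of peroxisome biogenesis and beta-oxidation, 9 fell (69.2%, against 30.5% of all genes) and 1 rose (7.69%, against 29.2%). Pex5, the import receptor for peroxisomal matrix enzymes, fell, with 291 ± 29.9 (SD, n = 4) in young and 32.8 ± 15.05 (SD, n = 5) in old kidneys (log2 fold change -3.22, SE 0.25, adjusted p = 3.43e-09 by limma), and Ehhadh, an enzyme of peroxisomal beta-oxidation, rose (log2 fold change 0.74, SE 0.19, adjusted p = 0.00295 by limma).

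The soluble members rose or were not called. Abcf1, which binds initiation factor eIF2 and ribosomes, rose from 311, 291, 311 and 288 to 555, 442, 456, 637 and 601 normalised counts, the lowest old library far above the highest young one (log2 fold change 0.83, SE 0.12, adjusted p = 6.18e-06 by limma). Abcf2 rose from 129, 115, 122 and 107 to 184, 185, 158, 202 and 167, also without overlap (log2 fold change 0.60, SE 0.12, adjusted p = 0.000362 by limma). Abcf3 had 40.9, 43.7, 37.3 and 47.98 in young and 64.8, 73.3, 52.7, 50.4 and 45.6 in old libraries, where old replicate 5 overlapped the young range (log2 fold change 0.41, SE 0.19, adjusted p = 0.0662 by limma), and it was called in 4 of 21 alternatives, among them that with the length trend removed (0.51, adjusted p = 0.0236). With the length trend removed, the log2 fold change was 0.92 for Abcf1 and 0.77 for Abcf2. Abce1, which splits ribosomes for recycling, was measured at 156, 154, 118 and 102 in young and 140.3, 141, 147, 154 and 146 in old libraries. The old values lay inside the young range, and no difference was called (0.16, interval -0.13 to 0.45, adjusted p = 0.339 by limma). Of the 13 listed genes of ribosome recycling and translation control, 5 rose and 5 fell (38.5% each, against 29.2% and 30.5% of all genes). Among those with a mean of 50 or more normalised counts, Gspt1, the release factor eRF3, showed the largest rise (log2 fold change 0.72, SE 0.11, adjusted p = 2.01e-05 by limma) and Eif2s3x, the gamma subunit of eIF2, the largest fall (log2 fold change -1.18, SE 0.16, adjusted p = 5.3e-06 by limma).

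The summed normalised counts of the subfamilies weigh genes by their reads and carry no test. The sum of subfamily F was 443 to 481 in young and 667 to 889.9 in old libraries, that of subfamily G 1001 to 1302 in young and 1683 to 1864 in old libraries and that of subfamily C 1147 to 1297 in young and 1517 to 2129 in old libraries, with 1.68-fold, 1.49-fold and 1.43-fold higher means in old kidneys. The sum of subfamily A was 1040.2 to 1265 in young and 1399 to 1616 in old libraries. In these 4 subfamilies the ages did not overlap. Single genes weighed heavily in them. Abcg2 gave 1747 of the mean of 1767 in old libraries for subfamily G, and Abcc2 1276 of 1776 for subfamily C. Abca13 of subfamily A had a mean of 201 in young and 336 in old libraries. The calls of Abcc2 and Abca13 were lost with the length trend removed, and no sums were made on that scale. In subfamily B the sum was 336 to 427 in young and 326 to 421 in old libraries, with overlap, and its members both rose and fell. The whole family summed to 4309 to 5083 in young and 6094 to 7049 in old libraries, and without Abcg2 and Abcc2 to 2463 to 2847 in young and 3363 to 3746 in old libraries. As a share of all reads of a library the family was 0.0871% to 0.0994% in young and 0.115% to 0.138% in old libraries.

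**Figure D4:**
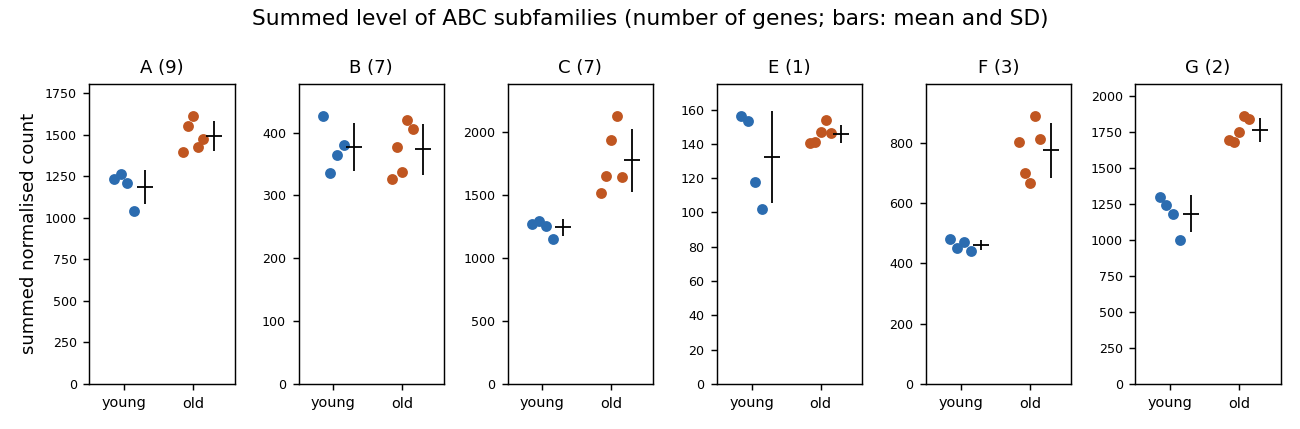
Summed normalised counts of the members of 6 ABC subfamilies (number of genes in brackets) in each library (points), with mean and SD of each age (bars) and a separate axis from 0 per panel. Old libraries lie above all young libraries in subfamilies A, C, F and G and overlap them in B and E.

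The old libraries were not alike over the 18 called members. Old replicate 4 was the farthest of the old libraries from the young mean in 10 of the 18 genes, and old replicate 2 the nearest in 6. The same counts were not made over all genes, so whether they are particular to the family is not known. Abcc4 differed widely among them, with old replicate 4 at 415 and old replicate 5 at 111 normalised counts. Of the members that were not called, Abca1 spread widely in young kidneys, and Abcc6 ran from 9.55 to 24.8 in old and from 17.5 to 20.6 in young libraries.

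**Figure D5:**
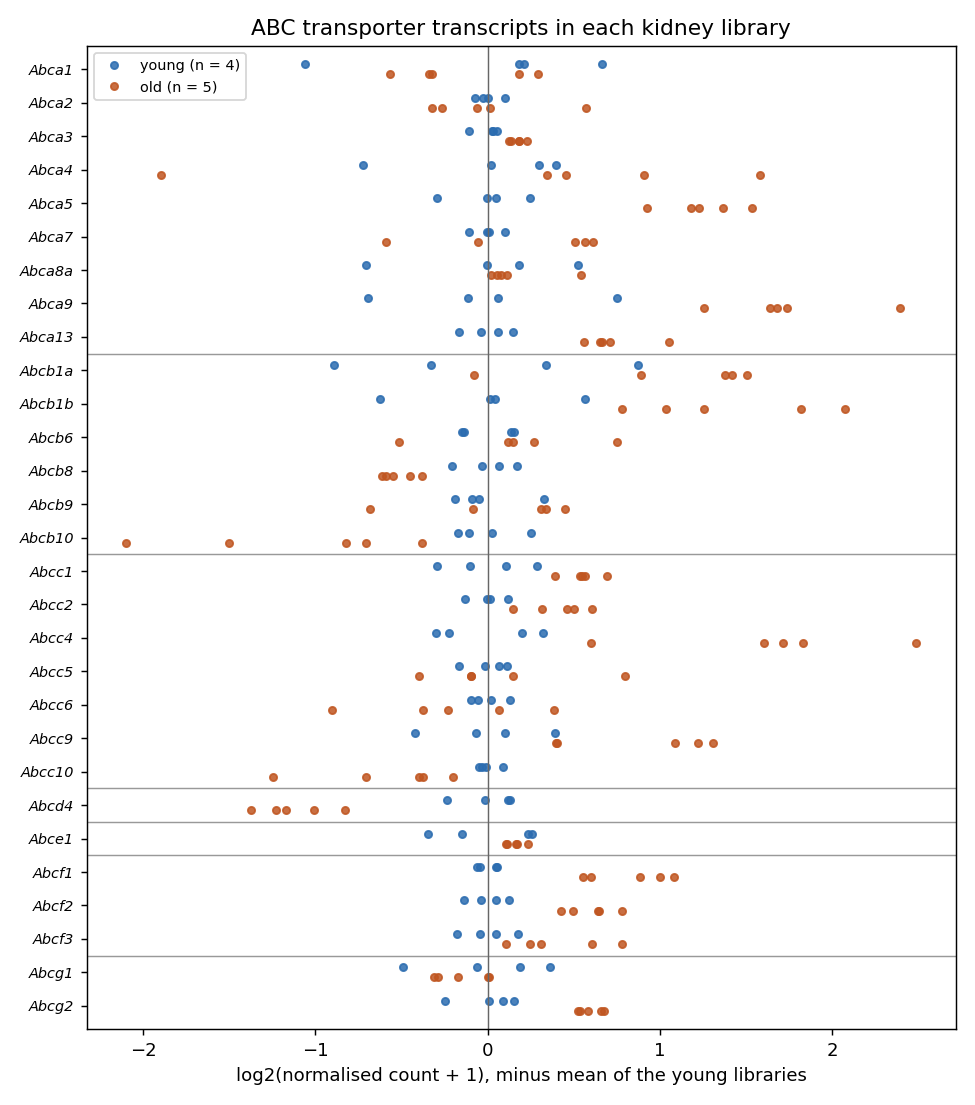
Level of 29 of the 31 ABC genes in each library as log2(normalised count + 1) minus the mean of the young libraries, young above and old below the line of each gene, with lines between subfamilies. The old points lie wholly to the right for Abca5, Abca9 and Abcg2, wholly to the left for Abcb10 and Abcd4, and mix with the young points for Abca1, Abca2 and Abcb9.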

How the data were processed

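RNA of 9 kidney samples was sequenced from transcript ends (QuantSeq 3′ mRNA-Seq per the labels). The authors aligned the reads to GRCm39 with TopHat2 (version 2.0.10 per the labels), counted them per gene and strand with HTSeq 0.6.1 on GENCODE vM26 and divided the counts by a size factor per library with DESeq. The deposited values are this normalised signal. In each library, 100% of the values were whole multiples of the smallest one (tolerance 0.001), which gave back the reads. No gene of the table has a mean under 4.49, and how low genes were dropped is not stated. Floors cover counting error only, since the reads carry no molecular identifiers.

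The groups are those of the age in the labels. Old was tested against young by limma 3.58.1 with a variance trend, run in R 4.3.3 on log2(normalised count + 1) of every gene with 10 or more normalised counts in 4 or more libraries, with Benjamini-Hochberg adjustment. All intervals are 95% confidence intervals. The fold changes given as ratios are ratios of mean normalised counts. The pseudocount makes log2 fold changes of low genes too small. Alternatives were count tests on the recovered reads (edgeR 4.0.16, DESeq2 1.42.0), other pseudocounts, filters and scalings, thinned reads, removal of length or GC trends (lowess) and each library left out. The tests were also run on simulated data with known changes, the results of which are not given here. Positions, lengths and overlaps came from GENCODE vM21 on GRCm38 by symbol (98.1% of the genes matched, all 31 members), and are not those of the build the authors used. Promoters came from RefSeq on GRCm38.p6. Of the members, 2 are not reported singly here, in text or figures. Named were all other members and, of each list of other genes, the called gene with the largest change in each direction whose mean was 50 normalised counts or more, and all genes of lists of 5 or fewer. Slc22a8 and Slco4c1 fall outside this rule. Members and lists were chosen with earlier results of these data known.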

Additional observations from a re-analysis of the deposited data

Results flagged for a closer look

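Of 62 groups of 4 or 5 libraries (31 ABC genes in each age), 1 held a library that stood apart, judged on log2(normalised count + 1) by the distance to its neighbour divided by the whole range, and the count holds for that scale. Chance gives about 3.1 such groups. Abca8a stood at 131 normalised counts in old replicate 3 and between 90.5 and 96.5 elsewhere in old kidneys, a distance of 0.825 of the range on the log2 scale. The level was close to the highest young library (129, young replicate 2). All 6 adipocyte markers in the table were also highest of their age in these libraries, as Adipoq with 189 normalised counts in old replicate 3 and 40.8 in young replicate 2, and their part in the level of Abca8a was not tested. The fibroblast marker Dcn was likewise highest of its age in both libraries. Jchain, Ighm and Igkc were highest in old replicate 3 among the old libraries, but in young replicate 1 among the young. The part of these genes was not tested either.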

How the results depend on the processing

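Of the 30 members tested, 16 kept direction and call under each of the 22 alternatives in which they were tested, and 12 of the 18 called members did so. With only genes of a mean of 100 or more tested, which leaves fewer genes, 8 members were called, 7 higher and 1 lower, 6 with a 1.5-fold change, with 1, 1, 2 and 1 called in subfamilies A to D and a median log2 fold change of 0.60. That median was 0.45 on counts scaled without mitochondrial genes, and 0.12 with the length trend removed, where 2 members of subfamily C were called (5 in the main test). Leaving out 1 library gave 15 to 18 called members, 12 to 14 higher and 3 to 4 lower, 11 to 15 with a 1.5-fold change, and 3 to 5 in subfamily C, the 3 without young replicate 2 or young replicate 4. With the length trend removed the direction changed for Abca3 (-0.13), Abca7 (-0.11), Abca8a (-0.060), Abca13 (-0.018), Abcc2 (-0.0057) and Abcc5 (-0.17), and Abca1 (-0.68, adjusted p = 0.0411), Abca2 (-0.43, adjusted p = 0.0182) and Enpp1 (-0.45, adjusted p = 0.0137) were called lower. With mitochondrial genes left out, Abca3 was called (0.31, adjusted p = 0.00431), Abca2 (0.13) and Enpp1 (0.012) changed direction, and Abcc10 was not called. Abca3 was also called with the GC trend removed (0.27, adjusted p = 0.0131 by limma). The near-zero change of Abca2 also changed direction in edgeR (0.029) and DESeq2 (0.029), with the GC trend removed (0.084), and without young replicate 2 (0.021) or old replicates 1 (0.065), 4 (0.051) or 5 (0.00090). Direction also changed for Abca1 without young replicate 1 (0.071), Abca8a without young replicate 4 (-0.075), Abcb9 without old replicate 2 (-0.030) or 4 (-0.0033) and Abcc5 without old replicate 3 (-0.11). With each library left out in turn, the log2 fold change ran from -0.50 to 0.071 for Abca1, -0.16 to 0.065 for Abca2, -0.075 to 0.34 for Abca8a, -0.030 to 0.25 for Abcb9 and -0.11 to 0.19 for Abcc5. Abcb1a was not called without young replicates 2 (0.91, adjusted p = 0.0984) or 4 (0.73, adjusted p = 0.151) or old replicates 1 (0.93, adjusted p = 0.0834), 2 (0.92, adjusted p = 0.0798), 4 (0.90, adjusted p = 0.0931) or 5 (1.06, adjusted p = 0.0503). Abcf3 was called without old replicate 5 (0.49, adjusted p = 0.035). The cause of these changes was not tested. No paired analysis was possible because the labels carry no replicate numbers shared between the ages. Members with few reads, such as Abcb1a and Abcb1b, have the widest intervals.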
